A study of Rattus norvegicus with 17 samples.

Results

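The translation initiation factors measured here were 40 genes of the 14506 named genes on the array. They were chosen by name: each is the gene of a probe set with a single gene symbol that starts with Eif1, Eif2, Eif3, Eif4, Eif5 or Eif6, without the kinases named Eif2ak, and a gene with several such probe sets was read from the one with the highest mean. The 41 probe sets found gave 40 genes in 10 functional groups, and Eif3h was the gene with 2 probe sets. The samples were ventricular myocytes of neonatal rats of the Sprague-Dawley strain, 5 days in culture, with total RNA read on 17 Affymetrix arrays. Uremic plasma, the plasma of people with kidney failure, was given at 10% to 12 of them. For 6 of these it was drawn before nocturnal hemodialysis (NHD), a dialysis given overnight, and for 6 after it. A further 3 cultures received control plasma, whose share the labels do not state, and 2 received phenylephrine, which stimulates alpha-adrenergic receptors and induces growth of cultured myocytes, in a medium the labels do not state. The labels name no genetic change in the cells. The replicates are called biological, without saying whether cultures or plasma donors differed, so the p-values measure the spread between these samples, whatever its source.

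Translation of most messages begins when a small ribosomal subunit, loaded with initiator tRNA by the GTP-binding complex eIF2, is guided by eIF1, eIF1A and eIF3 to a message whose cap is held by eIF4F, the assembly of the cap-binding protein eIF4E, the scaffold eIF4G and the helicase eIF4A. After the start codon is found, eIF5 and eIF5B release eIF2 and join the large subunit, and eIF2B recharges eIF2 with GTP. Cells set the rate mainly by phosphorylating eIF2, which blocks eIF2B, and by the 4E-binding proteins, which hold eIF4E away from eIF4G until mTORC1 phosphorylates them. A heart muscle cell that grows makes more protein, and these steps are among those that growth stimuli such as phenylephrine act on.

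The deposited values are log2 levels after RMA (robust multi-array averaging), so a difference of 1 is a doubling, and the level of 1 probe set says nothing against the level of another. Levels ran from 1.28 to 14.29 over 29214 probe sets, and precision is limited by how many arrays there were. Differences were tested with limma in 1 fit of all arrays, and a gene is said to rise or fall where its p, adjusted by Benjamini-Hochberg over all probe sets, was under 0.05. Errors of differences are standard errors. Some arrays stood apart. The nearest pair among all 136 pairs of arrays was before NHD replicate 4 and after NHD replicate 4, which carry different group labels. Whether both labels are right was not tested, and every value of the before and after NHD groups rests on them. Over the 40 initiation factors their difference had an SD of 0.0572, against 0.147 to 0.614 in the other 35 pairs of a before and an after array and 0.0802 to 0.598 within groups. Both were also high in these genes: before NHD replicate 4 had the highest level of its group in 25 of 40 members (62.5%, against 20.8% of all genes), and after NHD replicate 4 in 32 of 40 (80.0%, against 30.2%). Before NHD replicate 5 lay among the control arrays on the first principal component of all probe sets, at -66.5 against -72.24 to -50.31. The tests below were therefore repeated without each of these arrays. The arrays were picked after their values were seen, so the repeats show how far results rest on them and are no independent support.

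Cardiac muscle markers were high in every group. The mean of 12 cardiomyocyte markers lay between 12.53 and 13.17 on all arrays. After NHD against control plasma 7 of the 12 rose, where 16.7% of all genes rose. Of 10 fibroblast markers 0 passed in any comparison, while their mean ran from 6.71 to 9.57 before NHD, 6.90 to 9.40 after NHD, 7.89 to 8.05 with control plasma and 9.50 to 9.76 with phenylephrine. Means of 7 endothelial and 7 leukocyte markers stayed between 5.74 and 7.13. Of the endothelial genes Kdr rose against control in all 3 other groups, and Cdh5 rose with phenylephrine against each of the other 3. Among 6 smooth muscle markers Cnn1 fell after NHD and Acta2 fell with phenylephrine, each against control. The part of these shifts in the results below was not tested. In such cultures, fewer cells of a type and less RNA per cell cannot be told apart.

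**Figure D1:**
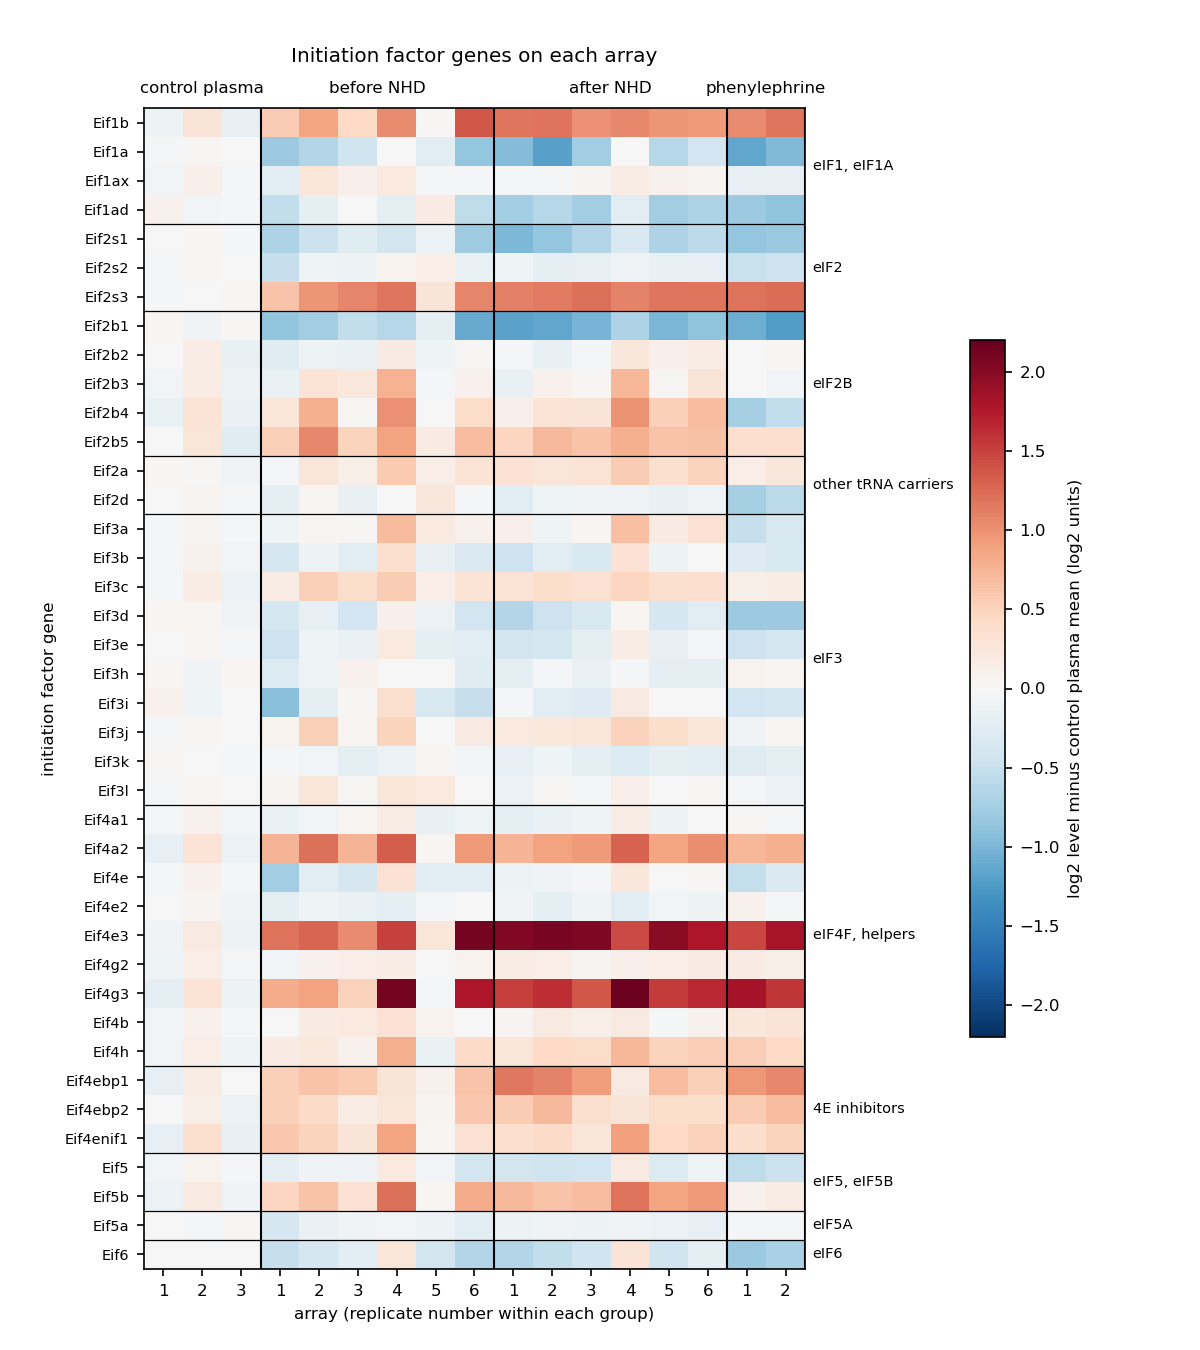
Heat map of the 40 initiation factor genes (rows, ordered by functional group) on the 17 arrays (columns, by group and replicate number). Colour gives the log2 level minus the mean of the 3 control plasma arrays, red for higher and blue for lower: Eif4e3 and Eif4g3 are the reddest rows outside the controls, before NHD replicate 5 looks like a control array, and the columns numbered 4 resemble each other.

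Initiation factor messages differed most between control plasma and 2 groups, those given after NHD plasma or phenylephrine. After NHD against control, 13 members rose and 4 fell, 42.5% of the 40, where 33% of all genes passed (16.7% higher, 16.3% lower). With phenylephrine against control 6 rose and 8 fell, 35.0%, where 23.6% of all genes passed (11.7% higher, 11.9% lower). Before NHD against control 4 rose and 1 fell, 12.5%, beside 5.84% of all genes (3.75% higher, 2.09% lower). In these 3 comparisons the members' shares therefore lay somewhat above those of all genes, which is a description without a test. Members are bright, with a median near 11 on each array where that of all probe sets was near 7. Of the 14607 brighter probe sets, 6530 passed after NHD, 4992 with phenylephrine and 1917 before NHD, each against control. In that setting 19, 16 and 7 of the 40 members passed, closer to the background. The part of brightness in the excess was not tested. The 3 comparisons share the control arrays and are not independent of one another. In all, 22 members passed in at least 1 of the 6 comparisons and 18 in none.

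The median member differed little in any direction, because rises and falls were mixed within the family. It was 0.06 before NHD against control, 0.05 after NHD against control and -0.02 with phenylephrine against control, where the medians of all genes were -0.05, -0.07 and -0.06. In single arrays, 13 members lay higher and 7 lower on every after NHD array than on every control array, while 38.1% of all genes were so separated (18.5% higher, 19.6% lower). With phenylephrine the groups did not overlap for 13 members above control and 19 below it, beside 63.7% of all genes (29.9% higher, 33.8% lower), a large background because there were 2 arrays against 3. The arrays were separated for 5 members before NHD against control, beside 9.31% of all genes, and for 0 after against before NHD, beside 0.669%. For phenylephrine they were separated for 13 members against before NHD, beside 19.7%, and for 20 against after NHD, beside 27.4%.

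Plasma from after NHD and from before NHD differed in no initiation factor at the threshold. With limma 0 of 40 passed, 5 had an unadjusted p under 0.05 (3 of them higher), where 18.5% of all probe sets had one, and 0.483% of all genes passed (0.379% higher, 0.103% lower). The nearest to the threshold was Eif1ad, which encodes an eIF1A domain protein, at -0.42 ± 0.13 (adjusted p = 0.099, lower on 5 of 6 after NHD arrays than on every before NHD array). The next was Eif4e3 at 0.67 ± 0.22 (adjusted p = 0.122). The 95% interval of a member's difference had a median width of 0.254 on either side, before any adjustment for the number of tests. Without both samples numbered 4, 3 members passed: Eif1ad fell (-0.49, adjusted p = 0.0278), and Eif4e (0.34, adjusted p = 0.0471) and Eif4e3 (0.81, adjusted p = 0.0458) rose. Over all 29214 probe sets that omission moved the calls from 116 to 2677 (9.16%). Leaving out before NHD replicate 4 alone gave 2 members, Eif4e and Eif4g3, beside 9.06% of all probe sets. Without before NHD replicate 6 there were 2, Eif1ad and Eif4e3, beside 9.21%, and without after NHD replicate 4 there was 1, Eif1ad, beside 2.19%. The members' shares in these settings were near or below those of all probe sets.

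The upstream sequence of several members that changed is shown here because they moved in opposite directions. RefSeq's promoter table for the GRCr8 assembly held 34 of the 40 members by gene identifier. The 150 bases before the annotated start are printed 5′ to 3′ for Eif2s1 and Eif6, which fell in some comparisons, and for Eif4ebp2 and Eif4g3, which rose. They lie at chr6:103405730-103405879 on the plus strand, chr3:164791411-164791560 on the minus strand, chr20:29942923-29943072 on the minus strand and chr5:155481228-155481377 on the plus strand. Each window ends at the boundary of the gene. Capitals mark a match, on either strand, to one of 7 searched motifs.
Eif2s1: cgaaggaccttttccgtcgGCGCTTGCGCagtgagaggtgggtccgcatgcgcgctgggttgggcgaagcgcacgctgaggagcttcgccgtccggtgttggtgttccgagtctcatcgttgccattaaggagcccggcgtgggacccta
Eif6: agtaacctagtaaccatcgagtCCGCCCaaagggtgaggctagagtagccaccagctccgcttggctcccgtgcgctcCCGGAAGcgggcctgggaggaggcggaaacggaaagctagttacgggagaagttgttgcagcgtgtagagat
Eif4ebp2: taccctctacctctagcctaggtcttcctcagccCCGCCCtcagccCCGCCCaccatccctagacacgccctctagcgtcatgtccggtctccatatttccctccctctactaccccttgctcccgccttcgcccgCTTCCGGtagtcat
Eif4g3: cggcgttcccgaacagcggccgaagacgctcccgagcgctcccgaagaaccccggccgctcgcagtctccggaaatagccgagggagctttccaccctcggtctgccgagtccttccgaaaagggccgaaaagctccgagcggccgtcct

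The motif GGGCGG, the letters of a GC box, occurred in the window of 20 of 34 members (58.8%), against 41.5% of 11950 genes of the array and 27.8% of all 27457 genes in the table. CCGGAAG, the core of many ETS sites, was in 11 members (32.4%, against 9.19% and 6.24%), and the palindrome read by NRF1 in 6 (17.6%, against 5.63% and 3.41%). CCAAT was in 6 (17.6%, against 25.8% and 23.7%). CACGTG, the E-box of MYC and related factors, was in 3, Eif1b, Eif3b and Eif4e (8.82%, against 4.8% and 3.93%). TGATGNAAN, the element of ATF4 and CHOP, was in Eif2s2 alone (2.94%, against 1.41% and 1.92%), and TGACGTCA, the cAMP response element, in 0 (against 1.93% and 1.45%). The GC content of these windows had a median of 63.0% in the members, 59.3% in genes of the array and 53.3% in all. The motifs were searched as letters on both strands, and GC-rich motifs are more frequent in GC-rich windows. In the printed windows Eif2s1 had the NRF1 letters, Eif6 and Eif4ebp2 had GC boxes and an ETS core, and Eif4g3 had none of the 7. Eif6, which fell, and Eif4ebp2, which rose, held the same kinds of motif.

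The subunits of eIF2 moved in opposite directions. Eif2s3 encodes the gamma subunit, which binds GTP and the initiator tRNA. Its level was 11.01, 11.03 and 11.09 with control plasma, 11.33 to 12.23 before NHD (median 12.06), 12.14 to 12.25 after NHD and 12.24 and 12.26 with phenylephrine. The control arrays lay below every other array. Eif2s3 rose against control by 0.87 ± 0.15 before NHD (adjusted p = 0.0164), 1.15 ± 0.15 after NHD (adjusted p = 0.000416, 2.22-fold) and 1.21 ± 0.19 with phenylephrine (adjusted p = 0.000884, 2.31-fold). Eif2s1 encodes the alpha subunit, the target of the eIF2 kinases. It was at 12.75, 12.76 and 12.72 with control plasma, 11.97 to 12.62 before NHD, 11.75 to 12.40 after NHD and 11.90 and 11.92 with phenylephrine, so that here the controls were above all other arrays. Eif2s1 fell by 0.68 ± 0.14 after NHD (adjusted p = 0.0028) and by 0.83 ± 0.19 with phenylephrine (adjusted p = 0.00623), and was at -0.45 ± 0.14 before NHD (adjusted p = 0.0746). The beta subunit gene Eif2s2 fell with phenylephrine by 0.47 ± 0.14 (adjusted p = 0.0324) and stood at -0.15 ± 0.11 after NHD (adjusted p = 0.344). On the same array, Eif2s3 minus Eif2s1 was on average -1.70 with control plasma, -0.38 before NHD, 0.14 after NHD and 0.34 with phenylephrine. The change of this difference shows unequal change of these probe sets, and its size at one condition has no meaning across probes. RefSeq names 3 pseudogenes of Eif2s1 and 1 of Eif2s3, which the probes may also read.

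The exchange factor eIF2B showed the same kind of split. Eif2b1, the alpha regulatory subunit, was at 11.81, 11.69 and 11.79 with control plasma, above the 10.66 to 11.57 before NHD, the 10.58 to 11.09 after NHD and the 10.68 and 10.53 with phenylephrine. It fell against control by 0.69 ± 0.16 before NHD (adjusted p = 0.0291), 0.99 ± 0.16 after NHD (adjusted p = 0.00062, 1.98-fold lower) and 1.16 ± 0.20 with phenylephrine (adjusted p = 0.0015, 2.23-fold lower). Eif2b5, the epsilon subunit that carries out the exchange, went the other way. Its levels were 8.06, 8.33 and 7.79 with control plasma, 8.24 to 9.12 before NHD, 8.53 to 8.85 after NHD and 8.42 and 8.43 with phenylephrine, and before NHD replicate 5 fell within the control range. Eif2b5 rose by 0.64 ± 0.16 before NHD (adjusted p = 0.0355) and 0.65 ± 0.16 after NHD (adjusted p = 0.00664), and stood at 0.37 ± 0.20 with phenylephrine (adjusted p = 0.227). The rise of Eif2b5 before NHD was not called without the samples numbered 4, and that after NHD was not called without control replicate 3.

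The delta subunit gene Eif2b4 was lowest with phenylephrine and passed there against before NHD alone. It was at 8.37 and 8.55 with phenylephrine, against 8.95, 9.39 and 8.94 with control plasma, 9.09 to 10.09 before NHD and 9.20 to 10.08 after NHD. With phenylephrine it was below every plasma array, as were Eif2d, Eif3a and Eif3d, among other members. The share of all genes so placed was not counted. Eif2b4 fell by 1.04 ± 0.26 against before NHD (adjusted p = 0.0286), while the values were -1.11 ± 0.26 against after NHD (adjusted p = 0.0501) and -0.63 ± 0.29 against control (adjusted p = 0.139). Without the samples numbered 4 the difference from after NHD passed as well (-1.01, adjusted p = 0.0243). The omitted arrays were the highest of their groups, at 10.09 and 10.08, so leaving them out was bound to lower the spread. The beta and gamma subunit genes Eif2b2 and Eif2b3 passed in none of the 6 comparisons, and their differences lay between -0.23 and 0.20.

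Eif2d, whose product can bring tRNA to the small subunit without GTP, was the 1 member that passed with phenylephrine against each of the other 3 groups. It was at 8.64 and 8.77 there and between 9.15 and 9.62 on all 15 plasma arrays, with no overlap. Eif2d fell by 0.67 ± 0.12 against control (adjusted p = 0.00181), by 0.65 ± 0.11 against before NHD (adjusted p = 0.00345) and by 0.55 ± 0.11 against after NHD (adjusted p = 0.0211). In the last comparison it was the 1 member of 40 that passed (2.5%), beside 1.35% of all genes. Against before NHD it was 1 of 2 (5.0%, beside 5.77%), with Eif2b4. After NHD against control it stood at -0.12 (adjusted p = 0.361). Eif2a, the single-chain factor eIF2A, rose by 0.38 ± 0.11 after NHD against control (adjusted p = 0.0202), with every after NHD array (9.36 to 9.65) above the 3 controls (9.13, 9.12 and 9.02).

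The factors eIF1 and eIF1A keep the scanning subunit open until a start codon is met. Of 4 genes grouped with them by name, 1 rose and 2 fell after NHD and with phenylephrine, each against control. Of all genes 16.7% rose and 16.3% fell after NHD, and 11.7% rose and 11.9% fell with phenylephrine. Among the 4 is Eif1ad, which encodes a protein with an eIF1A domain and is not itself eIF1A. Eif1b, a close relative of eIF1, was at 7.73, 8.12 and 7.66 with control plasma, 7.85 to 9.21 before NHD, 8.76 to 9.03 after NHD and 8.88 and 9.02 with phenylephrine. It rose by 1.05 ± 0.21 after NHD (adjusted p = 0.00204) and by 1.11 ± 0.27 with phenylephrine (adjusted p = 0.0105), and was at 0.72 ± 0.21 before NHD (adjusted p = 0.0586). Eif1a, a gene of the scanning factor eIF1A, fell by 0.66 ± 0.22 after NHD (adjusted p = 0.0325) and by 1.05 ± 0.28 with phenylephrine (adjusted p = 0.0165). Its after NHD levels ran from 11.21 to 12.41, and the highest of them, in replicate 4, lay among the controls at 12.38, 12.44 and 12.43. Eif1ad fell by 0.64 ± 0.15 after NHD (adjusted p = 0.00594) and by 0.84 ± 0.20 with phenylephrine (adjusted p = 0.00815). Its levels were 8.86, 8.71 and 8.73 with control plasma, 8.01 to 8.52 after NHD and 7.96 and 7.88 with phenylephrine, without overlap. The eIF1A gene of the X chromosome, Eif1ax, differed by -0.23 to 0.05 and passed in no comparison.

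The scaffold complex eIF3, which holds the small subunit open and bridges it to eIF4G, was the largest group measured. Of its 10 subunits, 1 passed after NHD against control and 1 with phenylephrine against control, and 0 before NHD, where 33%, 23.6% and 5.84% of all genes passed. Eif3c rose by 0.37 ± 0.10 after NHD (adjusted p = 0.0136), with levels of 11.20 to 11.37 against 10.87, 11.05 and 10.77 in the controls. Eif3d, the subunit that can itself bind the cap of some messages, fell with phenylephrine by 0.80 ± 0.18 (adjusted p = 0.00593), from 12.28, 12.27 and 12.16 to 11.44 and 11.43. In the direction of their values, 8 of 10 subunits were lower with phenylephrine than with control plasma (median -0.27), and 9 of 10 were lower than before NHD and than after NHD. Of all genes 56.0%, 51.9% and 50.4% were below 0 in these 3 comparisons. The subunits were not tested as a set. Eif3a, the core subunit, stood at -0.43 ± 0.21 against control (adjusted p = 0.174) and -0.63 ± 0.19 against after NHD (adjusted p = 0.149). Its phenylephrine levels of 10.74 and 10.88 lay below all 15 plasma arrays, which ran from 11.14 to 11.94. Without the samples numbered 4, Eif3a passed with phenylephrine against all 3 other groups. The values were -0.43 (adjusted p = 0.0253) against control, -0.49 (adjusted p = 0.0204) against before NHD and -0.54 (adjusted p = 0.0331) against after NHD. That omission removed no phenylephrine or control array, so the difference from control was unchanged. The omitted arrays were the highest of their groups (11.94 and 11.91). Leaving them out was bound to lower the spread, so these calls are no independent support. The 8 subunits other than Eif3c and Eif3d passed in none of the 6 comparisons, and both probe sets of Eif3h were among those that did not.

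The cap-binding machinery held the largest rises after NHD and with phenylephrine against control, in Eif4e3 and Eif4g3. Eif4e3 encodes an alternative cap-binding protein. It was at 6.93, 7.20 and 6.90 with control plasma, 7.27 to 9.12 before NHD, 8.47 to 9.10 after NHD and 8.47 and 8.83 with phenylephrine, and no array of the other groups reached down to the controls. Eif4e3 rose by 1.23 ± 0.27 before NHD (adjusted p = 0.0257, 2.35-fold), 1.90 ± 0.27 after NHD (adjusted p = 0.000443, 3.73-fold) and 1.64 ± 0.35 with phenylephrine (adjusted p = 0.00462, 3.12-fold). Eif4g3, a paralogue of the scaffold eIF4G, was at 7.24, 7.73 and 7.33 with control plasma, 7.41 to 9.55 before NHD, 8.79 to 9.58 after NHD and 9.26 and 9.01 with phenylephrine. It rose by 1.64 ± 0.34 after NHD (adjusted p = 0.00257, 3.12-fold) and 1.70 ± 0.44 with phenylephrine (adjusted p = 0.0142, 3.25-fold), and was at 1.01 ± 0.34 before NHD (adjusted p = 0.0879). Eif4a2, an isoform of the helicase, rose by 0.84 ± 0.21 before NHD (adjusted p = 0.0379) and 0.96 ± 0.21 after NHD (adjusted p = 0.00385), and was at 0.76 ± 0.28 with phenylephrine (adjusted p = 0.0648). Eif4h, a helper of the helicase, rose by 0.48 ± 0.16 after NHD (adjusted p = 0.0296).

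The other genes grouped with this machinery by name, Eif4e, Eif4a1, Eif4b, Eif4e2 and Eif4g2, passed in none of the 6 comparisons. Eif4e, the main cap-binding protein, was at 11.66, 11.79 and 11.66 with control plasma, 10.93 to 12.01 before NHD, 11.59 to 11.95 after NHD and 11.18 and 11.38 with phenylephrine. Its differences from control were -0.27 ± 0.16 before NHD (adjusted p = 0.311), 0.01 ± 0.16 after NHD (adjusted p = 0.976, 95% interval -0.33 to 0.35) and -0.42 ± 0.21 with phenylephrine (adjusted p = 0.167). The last of these passed without the samples numbered 4 (-0.42, adjusted p = 0.0468). That omission removed no phenylephrine or control array, so the difference was unchanged. It took out the highest before NHD and after NHD arrays (12.01 and 11.95) and so was bound to lower the spread. RefSeq names 10 pseudogenes of Eif4e and 8 of Eif4a1, so that these levels may include copies. The main helicase gene Eif4a1 differed by between -0.06 and 0.06 in the 6 comparisons, and Eif4b, Eif4e2 and Eif4g2 by between -0.13 and 0.26. The scaffold gene Eif4g1 was not analysed here.

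**Figure D2:**
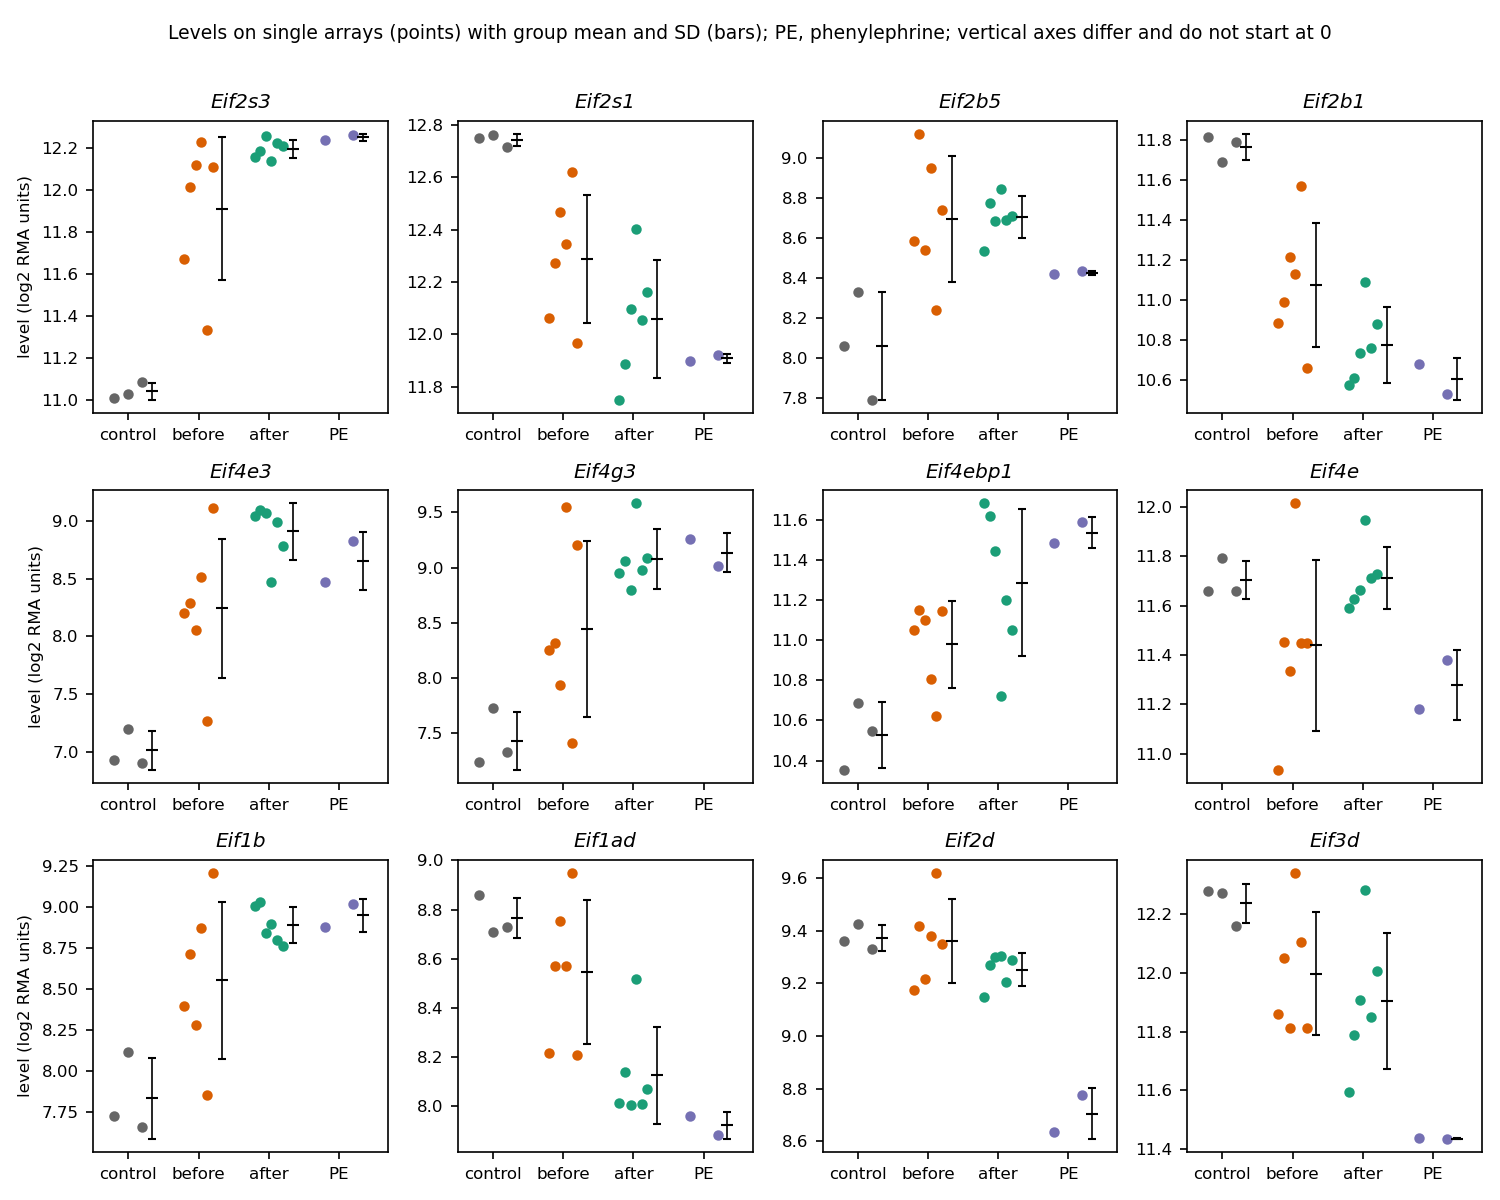
Levels of 12 initiation factor genes on each array (points, log2 RMA units, vertical axes differ and do not start at 0), with the group mean and SD beside them, for control plasma (3 arrays), before NHD (6), after NHD (6) and phenylephrine (PE, 2). Eif2s3 and Eif4e3 lie above the controls in all other groups, Eif2s1 and Eif2b1 below them, Eif4e overlaps between control and after NHD, and Eif2d is low with phenylephrine alone among these groups.

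Of the 3 genes that restrain or relocate eIF4E, 3 rose after NHD against control, 2 with phenylephrine and 0 before NHD, where 16.7%, 11.7% and 3.75% of all genes rose. The median difference after NHD was 0.48. Eif4ebp1, the 4E-binding protein regulated by mTORC1, was at 10.35, 10.69 and 10.55 with control plasma, 10.62 to 11.15 before NHD, 10.72 to 11.68 after NHD and 11.48 and 11.59 with phenylephrine. The after NHD arrays lay above the controls, and their lowest value, from replicate 4, was nearest to them. Eif4ebp1 rose by 0.76 ± 0.18 after NHD (adjusted p = 0.00626, 1.69-fold) and by 1.01 ± 0.24 with phenylephrine (adjusted p = 0.00814, 2.01-fold), and was at 0.45 ± 0.18 before NHD (adjusted p = 0.142). Its relative Eif4ebp2 rose by 0.45 ± 0.13 after NHD (adjusted p = 0.0141) and 0.62 ± 0.16 with phenylephrine (adjusted p = 0.0145). Eif4enif1 encodes the 4E transporter, which carries eIF4E into the nucleus and to stored messages. It rose by 0.48 ± 0.17 after NHD (adjusted p = 0.0457), a call that was lost in 14 of the 28 other settings tried. On the same array, Eif4ebp1 minus Eif4e averaged -1.18 with control plasma, -0.46 before NHD, -0.42 after NHD and 0.26 with phenylephrine, which shows unequal change of the 2 messages and nothing about phosphorylation of the protein.

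Later steps were mixed. Eif5b, the GTPase that joins the subunits, was at 8.59, 8.91 and 8.64 with control plasma, 8.75 to 9.92 before NHD, 9.34 to 9.91 after NHD and 8.81 and 8.87 with phenylephrine. It rose after NHD by 0.84 ± 0.19 (adjusted p = 0.00493) and stood at 0.13 ± 0.25 with phenylephrine (adjusted p = 0.761). The difference between phenylephrine and after NHD itself was -0.71 ± 0.22 (adjusted p = 0.172), so the groups were not shown to differ in Eif5b. Eif6, which keeps free large subunits from joining, fell with phenylephrine by 0.76 ± 0.25 (adjusted p = 0.0395), from 10.42, 10.44 and 10.44 to 9.62 and 9.73. It was at -0.33 ± 0.19 after NHD (adjusted p = 0.207), where replicate 4 at 10.72 lay above the controls and the other 5 arrays, 9.79 to 10.21, lay below them. Before NHD replicate 4, at 10.70, also lay above the controls. Without the samples numbered 4, Eif6 was at -0.43 before NHD (adjusted p = 0.0392) and -0.46 after NHD (adjusted p = 0.00538). That omission took out the arrays above the controls, so it was bound to lower these differences. Eif5, which triggers GTP hydrolysis by eIF2, was at -0.24 ± 0.14 after NHD (adjusted p = 0.22) and -0.52 ± 0.18 with phenylephrine (adjusted p = 0.0603), and RefSeq names 11 pseudogenes of it. Eif5a, the hypusinated factor that helps ribosomes through difficult stretches, differed from control by -0.17 ± 0.08, -0.11 ± 0.08 and -0.04 ± 0.10 in the 3 groups and passed in none.

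**Figure D3:**
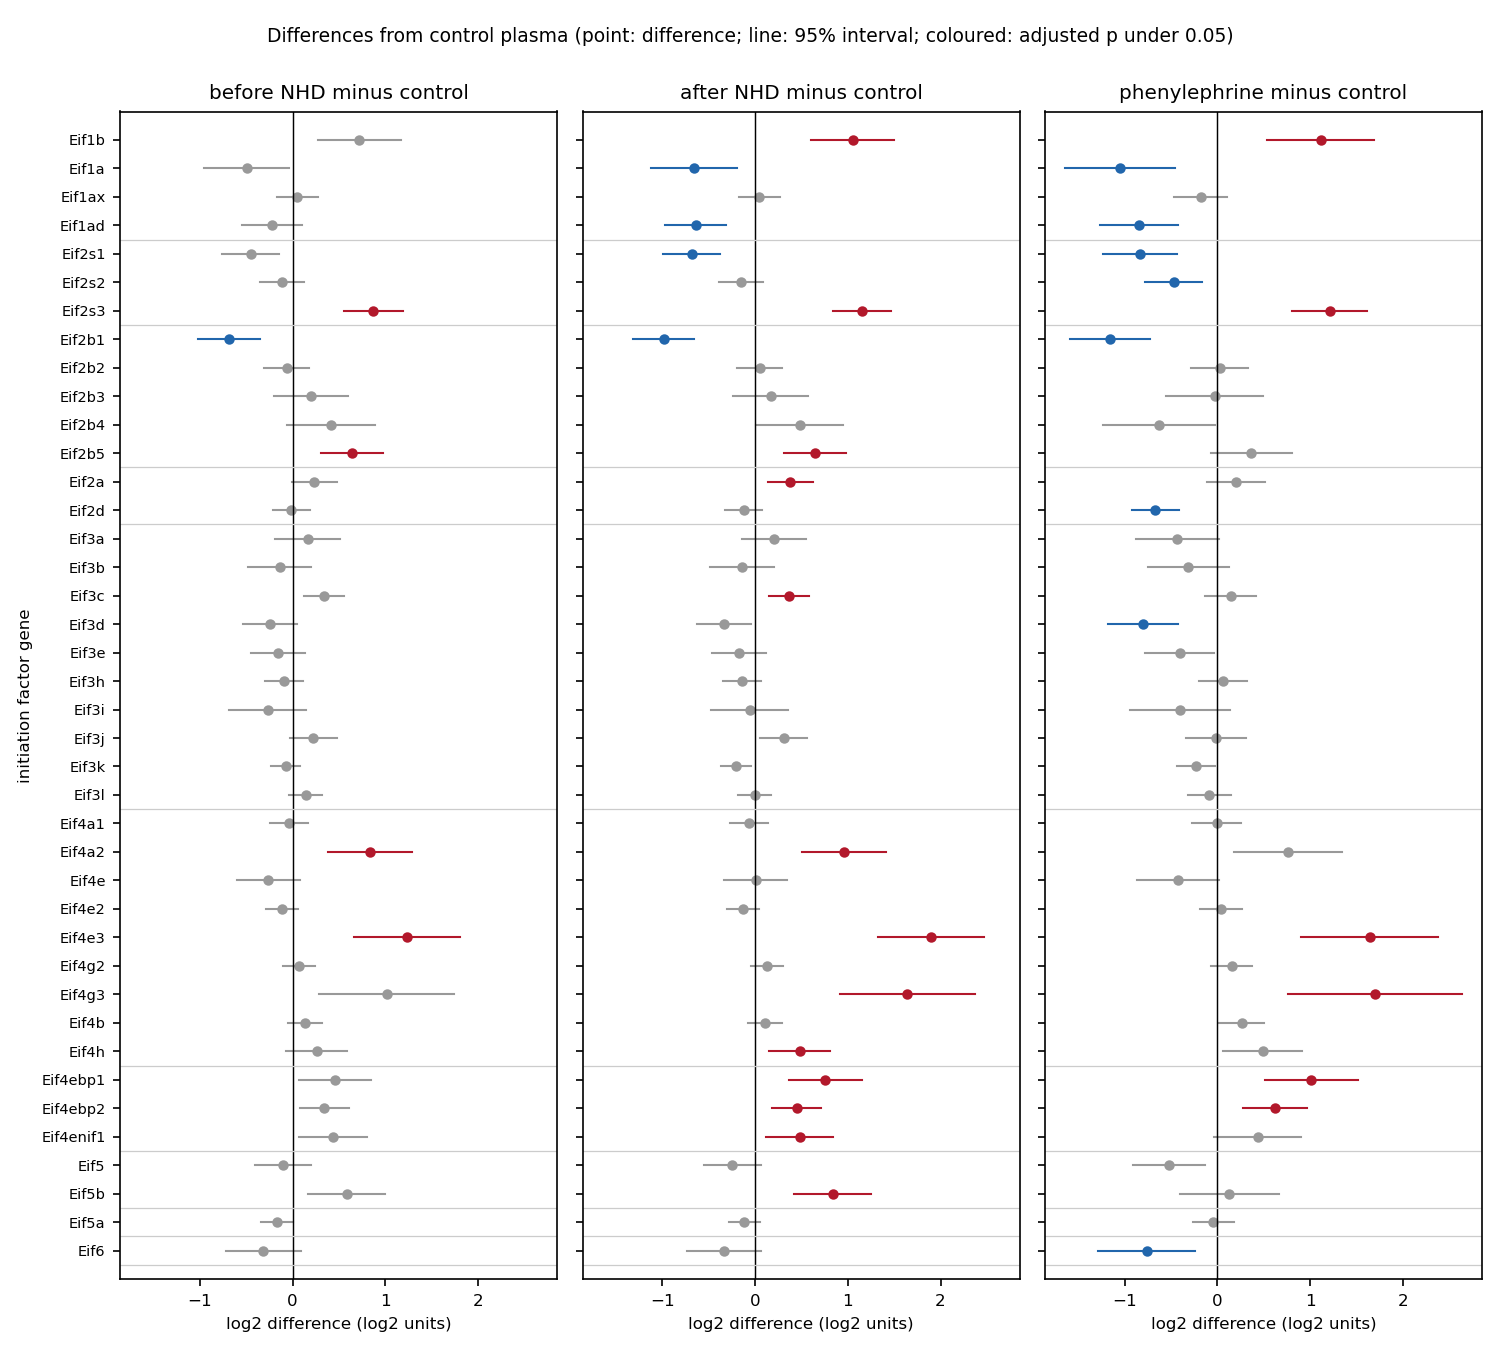
Log2 differences from control plasma of the 40 genes, before NHD (left), after NHD (middle) and with phenylephrine (right), as points with 95% intervals from limma. Red marks genes that rose and blue genes that fell at an adjusted p under 0.05 (4 and 1, 13 and 4, 6 and 8), and grey the rest.

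Most before NHD arrays lay between control and after NHD in these genes, with a wide spread. For the 17 members that passed after NHD against control, each array was placed on the way from the control mean (0%) to the after NHD mean (100%). These genes were picked on that contrast, so the positions are a description. The median position was 12.8% for before NHD replicate 5, 55.0% for replicate 3, 68.7% for replicate 1, 82.0% for replicate 2, 98.1% for replicate 6 and 103% for replicate 4. For the 4788 genes of the whole array that passed, the same arrays stood at 8.67%, 43.7%, 55.3%, 65.6%, 103% and 85.5%. The order of the arrays was the same except for replicates 4 and 6. The median member had an SD of 0.238 among the before NHD arrays, 0.158 among the after NHD arrays, 0.0777 among the controls and 0.0554 between the phenylephrine arrays. Without before NHD replicate 5, the members that passed before NHD against control went from 5 to 12: the 5 called with all arrays, and Eif3c, Eif4enif1, Eif4ebp2, Eif4g3, Eif1b and Eif5b higher and Eif2s1 lower. Over all probe sets that omission moved the calls from 1439 to 5101 (4.93% to 17.5%). Replicate 5 was the before NHD array nearest the controls, so leaving it out moves the group away from them. The added calls are therefore no independent result.

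**Figure D4:**
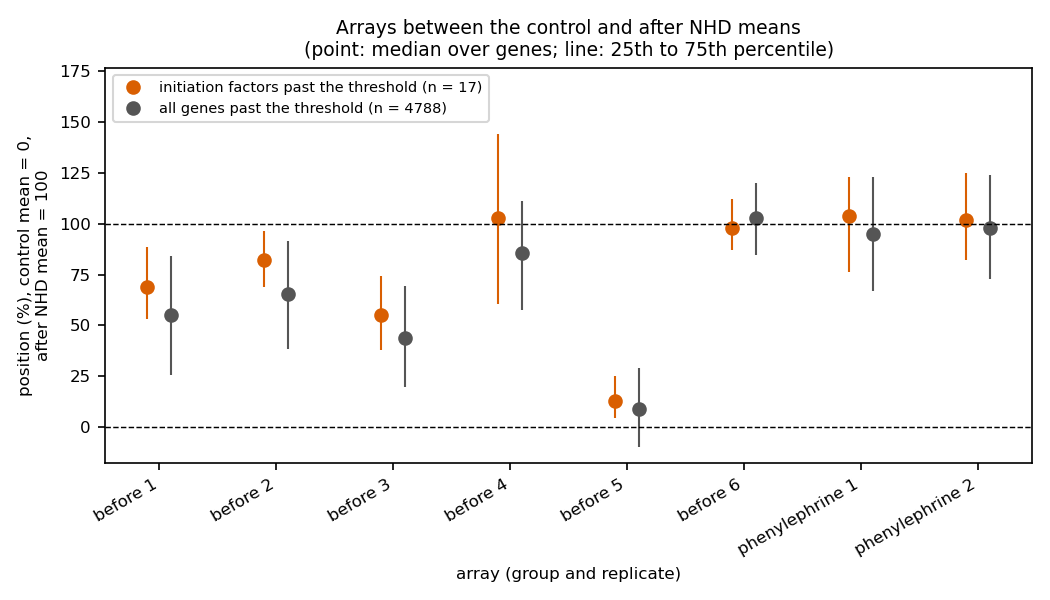
Position of each before NHD and phenylephrine array between the control mean (0%) and the after NHD mean (100%), as the median over the 17 initiation factors that passed after NHD against control (orange) and over all 4788 such genes (grey), with lines from the 25th to the 75th percentile. Before NHD replicate 5 lies near the controls at 12.8% and 8.67%, and the phenylephrine arrays lie near the after NHD mean at 104% and 102% for the initiation factors.

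The comparison of before NHD with control was also sensitive to the control arrays. With limma, leaving out control replicate 1 or 3 left 0 of 40 members and 0 of all 29214 probe sets, with 4470 and 4762 at an unadjusted p under 0.05. Without before NHD replicate 2, 1 member and 0.873% of all probe sets passed. Without before NHD replicates 1, 4 or 6 or after NHD replicate 5, 3 members passed each, beside 2.31%, 2.79%, 1.46% and 2.55% of all probe sets. These losses were thus of the whole comparison and not of the members alone. In the comparison of after NHD with control, 11 members passed without control replicate 1 (15.6% of all probe sets) and 10 without control replicate 3 (17.3%), where 28.2% of all probe sets passed with all arrays. Of its 17 genes, Eif2s3, Eif2s1, Eif2b1, Eif4e3, Eif4g3 and Eif1b passed in all 28 other settings tried. In the comparison of phenylephrine with control, 4 of 14 members were left without phenylephrine replicate 1 and 3 without replicate 2, beside 5.55% and 6.2% of all probe sets against 18.7% with both. In these fits the lone phenylephrine array is assumed to vary like the other groups. Eif2s3, Eif2b1 and Eif2d passed in all 28 settings, these included. Without the samples numbered 4, 20 members passed after NHD against control (13 higher, 7 lower), beside 31.8% of all probe sets, and 20 with phenylephrine against control (8 higher, 12 lower), beside 23% of them.

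Phenylephrine and uremic plasma were compared directly to see which members differed between them. Against before NHD 2 members fell and 0 rose, where 3.14% of all genes fell and 2.63% rose. Against after NHD 1 fell and 0 rose, where 0.689% of all genes fell and 0.662% rose. Values below 0 were more frequent in the members than in all genes, with 28 of 40 (70.0%) against 50.4% for phenylephrine minus after NHD and 25 of 40 (62.5%) against 51.9% for phenylephrine minus before NHD. The medians of the members were -0.19 and -0.17, where those of all genes were -0.00 and -0.01. No test was made of these shares. The 3 members furthest below the after NHD mean were Eif2b4, Eif5b and Eif3a. Without the samples numbered 4 the medians were -0.12 and -0.09, and 3 members fell against after NHD (Eif3a, Eif2d and Eif2b4) and 5 against before NHD (these and Eif1ad and Eif3d), where 1.59% and 8.21% of all probe sets passed.

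The genes around the initiation factors, from 8 lists of kinases, phosphatases, mTORC1 parts, partners and later translation factors, were mixed as well. Of 43 measured genes, 7 rose and 12 fell after NHD against control, 7 rose and 7 fell with phenylephrine, and 3 rose and 1 fell before NHD, while 0 passed between after and before NHD. These were 44.2%, 32.6% and 9.3% of the 43, where 33%, 23.6% and 5.84% of all genes passed. Among the 4 eIF2 kinases, Eif2ak3 (PERK, the kinase of endoplasmic reticulum stress) fell by 0.97 ± 0.18 after NHD (adjusted p = 0.00127). Another of them, Eif2ak1, fell after NHD and with phenylephrine, each against control. Eif2ak4 (GCN2, the kinase of amino acid shortage) rose by 0.53 ± 0.13 before NHD (adjusted p = 0.0355), 0.68 ± 0.13 after NHD (adjusted p = 0.00165) and 0.99 ± 0.17 with phenylephrine (adjusted p = 0.00134). Of 8 genes that dephosphorylate eIF2 or regulate its kinases, the phosphatase catalytic subunit Ppp1cc rose by 1.35 ± 0.22 after NHD (adjusted p = 0.000671). Its partner Ppp1r15b and the kinase inhibitors Dnajc3 (-0.54 ± 0.11, adjusted p = 0.00185) and Impact fell. The messages of kinases and phosphatases say nothing of the phosphorylation of eIF2.

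Of 12 measured genes of mTORC1 and the eIF4 kinases, 2 rose and 5 fell after NHD against control, where 16.7% of all genes rose and 16.3% fell. Those that rose were the mTORC1 subunits Mlst8 (1.51 ± 0.28, adjusted p = 0.00134) and Rptor (1.46 ± 0.28, adjusted p = 0.00157). The inhibitor Akt1s1, the S6 kinases Rps6kb1 and Rps6kb2, the activator Rheb and the eIF4E kinase Mknk1 fell, so that positive and negative regulators were in the same direction. Mknk1 also fell with phenylephrine against before NHD and against after NHD, the 1 gene of the 43 to do so. Pabpc4, a poly(A)-binding protein, rose by 0.81 ± 0.18 after NHD (adjusted p = 0.00354), while Paip1 was at 0.29 ± 0.14 (adjusted p = 0.141). Among 8 elongation factor genes, Eef2k, the kinase that slows elongation, rose by 1.16 ± 0.18 (adjusted p = 0.000593), Eef1g rose and Eef1b2 fell by 0.47 ± 0.14 (adjusted p = 0.0162). Of the enzymes that make the hypusine of eIF5A, Dhps fell after NHD by 0.54 ± 0.17 (adjusted p = 0.0293) and Dohh fell with phenylephrine by 0.62 ± 0.17 (adjusted p = 0.0193). The 3 measured helicase and recycling genes and the 3 termination factor genes passed in no comparison.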

How the data were processed

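RNA of cultured rat ventricular myocytes was labelled and hybridised to Affymetrix arrays, 1 per sample (17). The authors deposited log2 values made with RMA, per the submitters' processing notes; no source used here gives its version or probe set definitions. Values were used unchanged. Of 29214 probe sets, 15310 had a single gene symbol, 323 had several and 13581 had none in the platform annotation, and 15279 of the first matched RefSeq (39 of the 40 members). The probe set with the highest mean stood for a gene. Groups came from the sample titles. Groups were compared with limma 3.58.1 (lmFit and eBayes, R 4.3.3) in 1 fit of 4 group means, with two-sided tests (residual degrees of freedom 13, prior 3.32), Benjamini-Hochberg over all probe sets and a threshold of 0.05. The members, gene lists and settings were chosen with earlier results of these data known. Per-array values and full statistics are given for up to 8 members per comparison by smallest p and for 7 always named (Eif2s1, Eif2b5, Eif3a, Eif4e, Eif4ebp1, Eif5a and Eif6), and other members that passed were added after their values were seen. In simulated data of the same layout, differences of 1 log2 unit were recovered in 58% (phenylephrine minus control) to 91% (after minus before NHD) of 100 probe sets. Differences of 0.5 were recovered in 7% to 48%. The real groups were unequal in spread, with a median SD over all probe sets of 0.249 (before NHD), 0.16 (after NHD), 0.139 (control) and 0.0941 (phenylephrine). Some real arrays also stood apart. The simulated shares therefore do not tell how many real differences the tests would find, the 0 of 40 after against before NHD included. Other settings were the brighter probe sets, 1 probe set or the mean of all per gene, a second quantile normalization, another prior, fits of the compared groups alone, array weights, a replicate block, array SD as a term, a 1.5-fold minimum and arrays left out.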

Additional observations from a re-analysis of the deposited data

Results flagged for a closer look

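In groups of 6 arrays, 2 of 80 tests of a gene's most extreme array passed Dixon's 95% value, where chance flags about 1 in 20 groups. Eif1ad in after NHD replicate 4 was at 8.52, far from the other 5 arrays at 8.01 to 8.14. Eif3b in before NHD replicate 4 was at 11.8, with the other 5 arrays at 11.07 to 11.33. Both are from the samples numbered 4, which resembled each other across the array. After NHD replicate 4 also had Eif3b at 11.76, the highest of its group.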

How the results depend on the processing

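Over 28 other settings, 6431 of 6720 results for single genes kept their side of the threshold, 122 lost it, 167 gained it and 0 called values changed sign. Another 130 changed sign where neither setting called them. With all arrays the members that passed were 0 after against before NHD, 5 before NHD against control, 17 after NHD against control, and for phenylephrine 14 against control, 2 against before NHD and 1 against after NHD. Each array left out in turn gave 0 to 2, 0 to 12, 10 to 18, 3 to 17, 0 to 5 and 0 to 2. In the order before NHD against control, phenylephrine against control, before NHD and after NHD, fits of the compared groups alone gave 0, 22, 0 and 3, and array weights gave 16, 27, 10 and 8 (and 2 after against before NHD). Of all 29214 probe sets, 0, 9072, 34 and 966 passed in the former. With array weights 6929, 12602, 4764 and 2918 of them passed (and 3186 after against before NHD). With array SD as a covariate 0 passed before NHD and 6 after NHD against control, and 4 for phenylephrine against before NHD. These stood beside 2, 3015 and 2022 of all probe sets. The brighter probe sets, 1 probe set per gene and the mean of all probe sets each gave 4 for phenylephrine against before NHD and 2 against after NHD. Of all probe sets or genes tested, 1412 of 14607, 1006 of 14506 and 1010 of 14506 passed against before NHD. Against after NHD 294, 251 and 255 did. A second quantile normalization gave 2 and the 1.5-fold minimum 0 in the last comparison, beside 302 and 237 of all probe sets. Without the samples numbered 4 the counts were 3 after against before NHD, and for phenylephrine 5 against before and 3 against after NHD. To look for pairing, each probe set's deviation from its group mean was correlated between before and after arrays. These deviations, which are not the levels themselves, correlated at -0.0254 to 0.599 for same-numbered arrays. For differently numbered ones they did so at -0.452 to 0.354. For numbers 2, 3 and 4 the same-numbered pair correlated best (0.422, 0.599 and 0.571), and for 1, 5 and 6 another pair did. The labels do not say that a number marks the same patient. The main fit left the samples unpaired, and whether they are paired was not settled. With a replicate block 0, 13, 22, 20, 3 and 2 members passed, in the order of the counts with all arrays. Of all probe sets 316, 3329, 9055, 7326, 2447 and 694 did. The cause of these changes was not tested. The number of arrays, 2 with phenylephrine, limits these comparisons.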
